A study of Rattus norvegicus with 36 samples.

Results

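The NRF2 antioxidant response was followed through 9 genes, which were Nfe2l2, Keap1, Hmox1, Nqo1, Gclc, Gclm, Txnrd1, Srxn1 and Slc7a11. They were chosen by gene name, and all 9 were found among the 24275 genes listed with counts. RNA was sequenced from H9C2 cells, a rat cardiac myoblast line, after 24 h of transfection with 25 nmol/L of a mimic and a further 24 h in normoxia or hypoxia. The mimics were the mimic control (MC), miR-125b, and 4 of its 3′ isomiRs (Plus A, Trim AGU, Trim AG and Trim A), which are forms of miR-125b that differ at the 3′ end only. Hypoxia was below 0.2% oxygen in serum-free, low-glucose medium, and the normoxia cells received fresh normal medium, so effects of oxygen, serum and glucose cannot be told apart. Each group held 3 libraries, and counts were used for 33 libraries of 11 groups. Normoxia MC entered only through the authors' mean values. Nothing in the labels says that the libraries of a group came from separate cultures, so p-values measure the spread between these libraries.

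NRF2, the product of Nfe2l2, is a transcription factor that KEAP1 holds in the cytoplasm and marks for degradation by the proteasome. Oxidants or electrophiles modify KEAP1, NRF2 then escapes degradation, pairs with a small MAF protein and binds antioxidant response elements near its targets. The activity of NRF2 is set mainly at the protein level, which RNA counts do not measure. The targets studied here make and use antioxidants. Hmox1 encodes heme oxygenase 1, which opens the heme ring, and Nqo1 encodes a quinone reductase. Gclc and Gclm encode the catalytic and modifier subunits of glutamate cysteine ligase, the rate-limiting enzyme of glutathione synthesis. Slc7a11 encodes xCT, the carrier chain of an exchanger that brings in cystine for that synthesis. Txnrd1 encodes cytosolic thioredoxin reductase, and Srxn1 encodes sulfiredoxin, which repairs overoxidized peroxiredoxins. Hmox1 is also a HIF target, and Slc7a11 is also an ATF4 target.

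The transfected RNAs are shown first, because every comparison between mimics rests on their 3′ ends. The mature rno-miR-125b-5p sequence was taken from RefSeq (GRCr8, the Mir125b2 copy at chr11:29732588-29732609, plus strand). The isomiRs were built from it by the additions and deletions that the labels name. Capitals mark the seed, bases 2 to 8, which pairs with target transcripts.
miR-125b: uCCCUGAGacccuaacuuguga
Plus A: uCCCUGAGacccuaacuugugaa
Trim A: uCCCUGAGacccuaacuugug
Trim AG: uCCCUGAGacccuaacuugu
Trim AGU: uCCCUGAGacccuaacuug
All 5 share 1 seed, and their lengths run from 19 bases for Trim AGU to 23 for Plus A. The library titles number the trimmed forms, and the numbers were read in the order Trim A, Trim AG and Trim AGU.

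The start regions of the members were searched because several members moved together. RefSeq windows of 300 bases (GRCr8, 250 before and 50 after the start) were at hand for 8 members. The core letters of the antioxidant response element were searched on both strands as TGACNNNGC and as TGAGNNNGC. Of 33469 windows in the table, 12.1% held TGACNNNGC, 17.2% held TGAGNNNGC and 27.1% held either. Among the members, 4 held a match, with the matching letters in capitals below and the strand as printed.
Gclm (chr2:213031953-213031981, minus strand): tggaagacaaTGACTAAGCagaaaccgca
Txnrd1 (chr7:22755964-22755992, plus strand): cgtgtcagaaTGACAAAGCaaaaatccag
Nfe2l2 (chr3:81028950-81028971, minus strand): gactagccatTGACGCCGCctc
Srxn1 (chr3:161064797-161064825, plus strand): aaactcacccTGAGTCAGCgacccgacgc
Srxn1 held 2 further matches of TGAGNNNGC. The Nfe2l2 match lies after the start and is short on one side because the window ends there. In Srxn1 the letters TGAGTCA are also those of an AP-1 site, so the match overlaps another motif. For Keap1, Nqo1, Gclc and Slc7a11 these letters were not in the window, which says nothing of sites elsewhere.

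Compared per length, Nqo1 was the most abundant member transcript and Slc7a11 the least. The median FPKM over the 33 libraries, a count scaled by gene length and library total, was 499 for Nqo1, 332 for Hmox1, 131 for Txnrd1 and 118 for Nfe2l2. It was 52.4 for Gclc, 24.9 for Srxn1, 11.3 for Gclm, 11.1 for Keap1 and 3.23 for Slc7a11. All levels that follow are CPM, the count scaled to a common library total, and serve to compare 1 gene between libraries. The lowest count of any member in any library was 151, for Srxn1, so all 9 passed the filter on low counts in each comparison.

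Totals per library ranged from 28361216 to 42672584 counts. The Hypoxia Trim AG libraries held the largest totals, 39940087 to 42672584, and the largest total elsewhere was 34505938. The part of this depth in the counts of genes called with Trim AG was not tested. Vim, a mesenchymal gene of this line, was at 2609 to 3887 CPM in the group means, while Tnnt2 and Myog, genes of myogenic differentiation, were highest in Hypoxia MC at 307 and 352 CPM. The mature cardiomyocyte genes Nkx2-5, Myh6, Ryr2 and Nppa stayed below 0.8 CPM and the genes of other cell types, Adipoq, Epcam and Ptprc, below 0.7 CPM. A pair of libraries went against their labels in Cav1, a gene that separates Plus A from miR-125b in hypoxia. The library labelled Normoxia Plus A replicate 1 had 269 CPM beside 98.0 and 98.3 CPM in its group, and the library labelled Normoxia miR-125b replicate 1 had 102 CPM beside 282 and 263 CPM. Where both libraries of the pair entered a comparison, results are given with and without them. In the comparisons that held 1 of them, leaving it out changed no call of a member outside the interactions of Trim AG and Trim AGU, where the changes are given. Hypoxia Trim AGU replicate 2 stood apart from all other libraries, with 16981 genes detected beside 18342 or more and a TMM factor, edgeR's scaling of the library total, of 0.886 beside 0.955 or more. In it Srxn1 was at 12.1 CPM beside 53.1 and 59.6 CPM in its group.

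**Figure D1:**
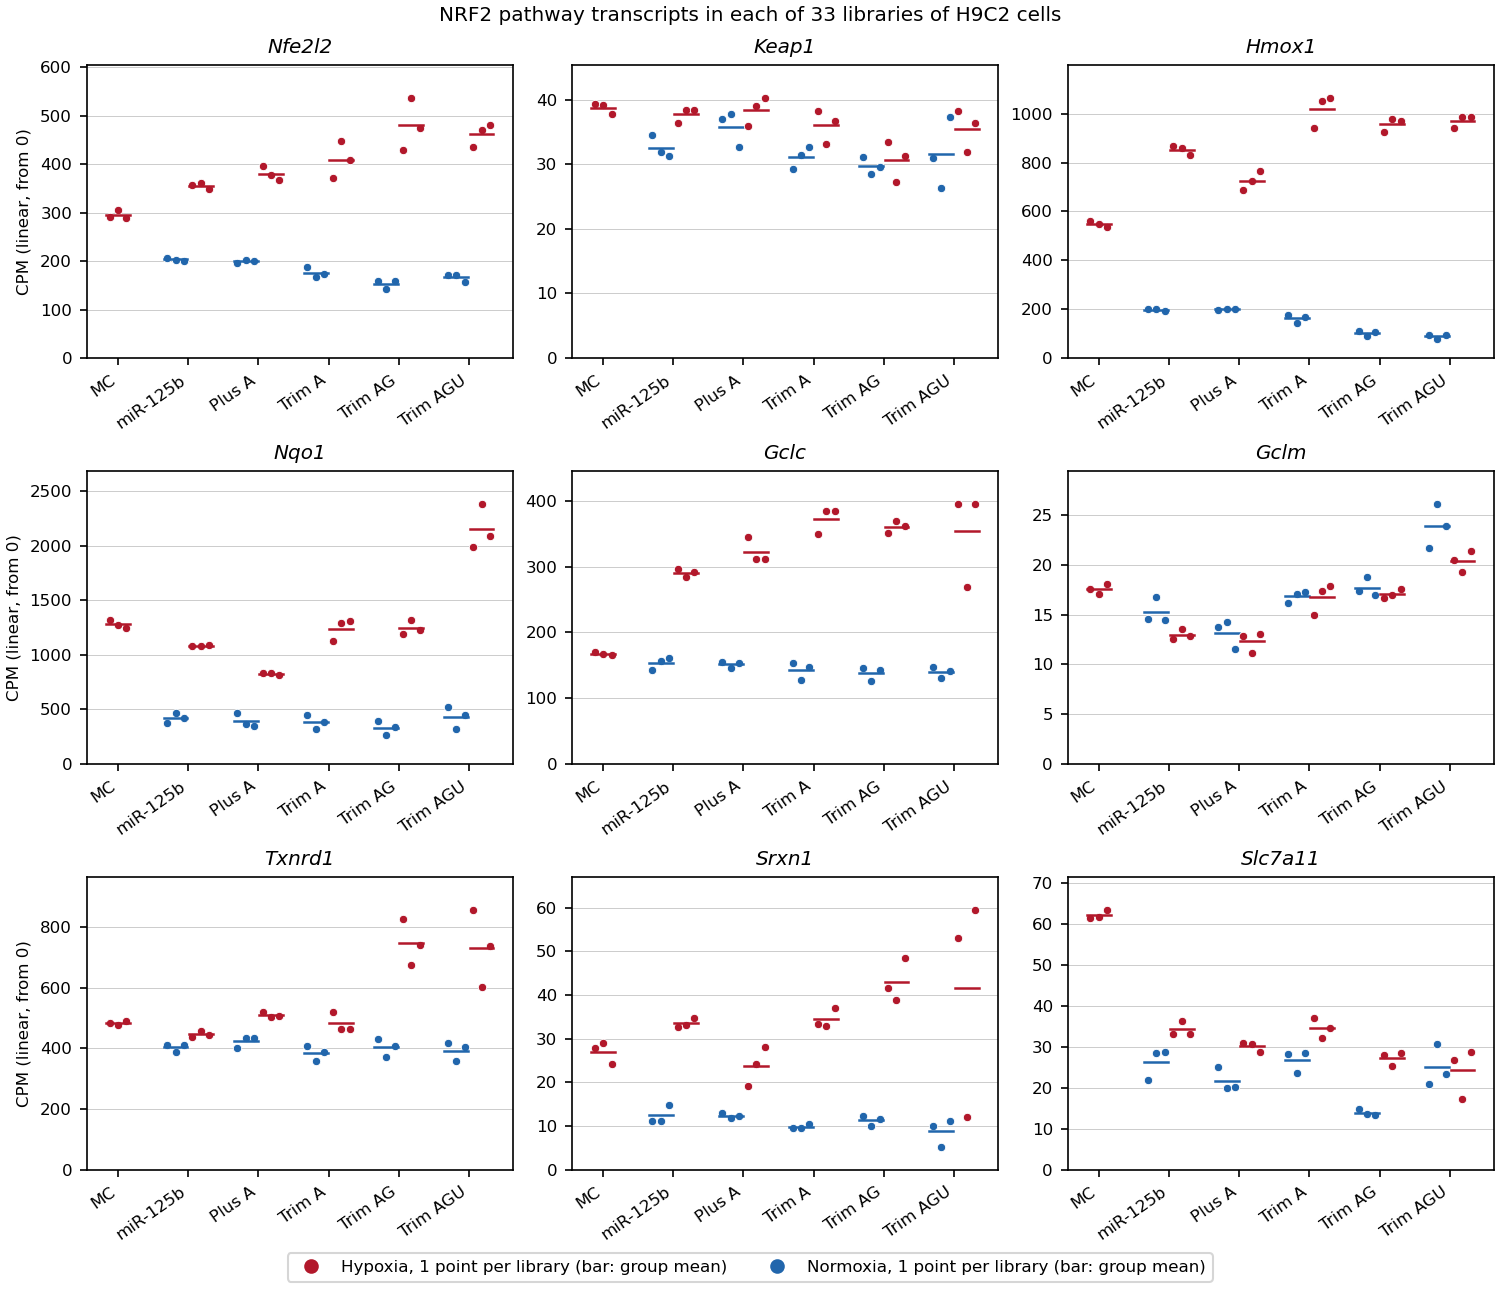
CPM of each member (vertical axis, linear from 0) in the 33 libraries, by mimic (horizontal axis), with hypoxia in red and normoxia in blue. Each point is a library and each bar a group mean, and Hmox1 ran from 77.6 to 1066 CPM while Keap1 stayed between 26.4 and 40.3 CPM.

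Hypoxia against normoxia asks how the response differed between the culture conditions under the same mimic. Hmox1, Nqo1, Srxn1, Gclc and Nfe2l2 were higher in hypoxia with each of the 5 mimics. Keap1 and Gclm were not called with any mimic. A call required a fold change of 1.5 or more and an adjusted p below 0.05 in edgeR's quasi-likelihood test, with Benjamini-Hochberg adjustment over all genes. Of all genes tested over the 5 mimics together, 13.7% were called higher and 16.1% lower, and of the members 5 were higher and 0 lower.

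Hmox1 changed most. In normoxia it was at 200, 199 and 193 CPM with miR-125b, 197, 201 and 202 CPM with Plus A, and 176, 144 and 168 CPM with Trim A. It was at 111, 88.3 and 106 CPM with Trim AG and 95.3, 77.6 and 93.6 CPM with Trim AGU. In hypoxia it was at 867, 861 and 832 CPM with miR-125b, 688, 725 and 766 CPM with Plus A, 944, 1053 and 1066 CPM with Trim A, 927, 977 and 971 CPM with Trim AG, and 943, 988 and 986 CPM with Trim AGU. No normoxia library reached the lowest hypoxia library, and the normoxia levels with Trim AG and Trim AGU lay below those with miR-125b, Plus A and Trim A. The fold change of Hmox1 was 11.3 with Trim AGU, 9.45 with Trim AG, 5.96 with Trim A, 4.09 with miR-125b and 3.36 with Plus A (log2 3.50 ± 0.17, 3.24 ± 0.11, 2.58 ± 0.10, 2.03 ± 0.04 and 1.75 ± 0.06, SE). Over the 5 mimics it was 6.10 (log2 2.61 ± 0.04, adjusted p = 1.47e-24, edgeR). Its constitutive relative Hmox2 was not called, at a log2 fold change of 0.27 over the 5 mimics.

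Nqo1 followed with a 3.08-fold rise over the 5 mimics (log2 1.62 ± 0.07, adjusted p = 2.03e-16, edgeR). Its normoxia libraries lay between 268 and 522 CPM, and the hypoxia libraries with a miR-125b form between 815 and 2385 CPM, without overlap. The log2 fold change was 2.38 with Trim AGU, 1.92 with Trim AG, 1.61 with Trim A, 1.28 with miR-125b and 0.97 with Plus A. Nqo2, its closest relative, was hardly detected, with group means of at most 0.312 CPM.

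Srxn1 rose 3.05-fold over the 5 mimics (log2 1.61 ± 0.14, adjusted p = 1.22e-10, edgeR). It was at 53.1, 12.1 and 59.6 CPM in Hypoxia Trim AGU and at 9.98, 5.21 and 11.2 CPM in Normoxia Trim AGU. The replicate 2 libraries were the lowest of both groups, and that of hypoxia stood just above the highest of Normoxia Trim AGU. The call with Trim AGU (log2 2.24 ± 0.54, adjusted p = 0.0193, edgeR) was lost without any 1 of the Normoxia Trim AGU libraries and without Hypoxia Trim AGU replicate 3, with an adjusted p of at most 0.0822, and the log2 fold change was 2.65 without Hypoxia Trim AGU replicate 2. With the other mimics Srxn1 rose by log2 1.93 for Trim AG, 1.73 for Trim A, 1.35 for miR-125b and 0.83 for Plus A.

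Gclc and Nfe2l2 each rose 2.24-fold over the 5 mimics (log2 1.17 ± 0.04 and 1.16 ± 0.04, adjusted p = 1.61e-18 and 1.21e-18, edgeR). Nfe2l2 in normoxia was at 206, 203 and 201 CPM with miR-125b, at 196, 203 and 201 CPM with Plus A, at 188, 166 and 173 CPM with Trim A, at 158, 142 and 160 CPM with Trim AG and at 172, 172 and 156 CPM with Trim AGU. In hypoxia it was at 357, 361 and 349 CPM with miR-125b, at 397, 378 and 367 CPM with Plus A, at 371, 449 and 409 CPM with Trim A, at 429, 537 and 476 CPM with Trim AG and at 437, 471 and 480 CPM with Trim AGU. The groups did not overlap under any mimic, and the log2 difference ran from 0.72 with miR-125b to 1.66 with Trim AG. Transcripts of the factor and of its negative regulator differed in this respect, since Keap1 gave 0.09 ± 0.04 over the 5 mimics (adjusted p = 0.0559, edgeR).

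Txnrd1 and Slc7a11 rose with some mimics. Txnrd1 was called with Trim AG (log2 0.90 ± 0.10) and Trim AGU (0.93 ± 0.15), and gave 0.07 ± 0.04 with miR-125b. Slc7a11 was called with Trim AG (0.98 ± 0.09), where normoxia stood at 14.7, 13.7 and 13.4 CPM and hypoxia at 28.1, 25.4 and 28.4 CPM, and gave -0.01 ± 0.21 with Trim AGU. Over the 5 mimics the values were 0.45 ± 0.04 for Txnrd1, 0.37 ± 0.06 for Slc7a11 and -0.18 ± 0.04 for Gclm. All 3 passed the adjusted p (at most 0.000753, edgeR) and fell short of the 1.5-fold threshold.

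By mimic, the members called higher were 6 with Trim AGU, 7 with Trim AG, 5 with Trim A, 5 with miR-125b and 5 with Plus A, and 0 were lower with any of them. The share of all genes tested that was called higher was 13.6%, 15.0%, 12.0%, 9.34% and 10.0% in the same order, and the share called lower was 13.4%, 17.8%, 14.5%, 11.5% and 12.8%. Without the pair of libraries that went against their labels, the 5 calls over the 5 mimics remained, and Hmox1 gave 2.60. Of 8 tested HIF targets listed as a check of the condition (Vegfa and others), 7 were called higher over the 5 mimics, and of 8 genes of the ATF4 response 6 were. Both lists moved with the members, and their part in the result was not tested.

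**Figure D2:**
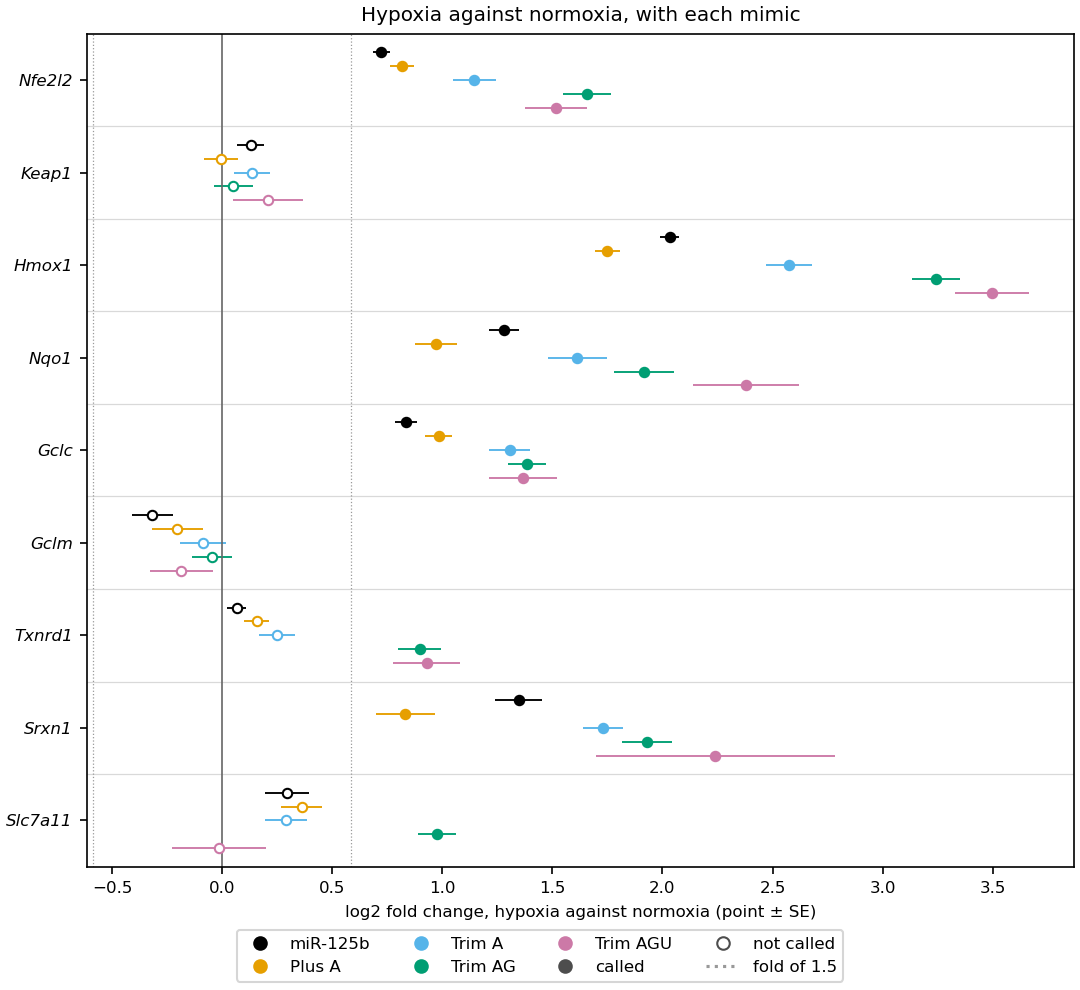
Log2 fold change of hypoxia against normoxia (horizontal axis, point ± SE) of each member (vertical axis) with each of the 5 mimics. Filled points were called, and Hmox1 stands farthest right, from 1.75 with Plus A to 3.50 with Trim AGU.

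The mimics were then set against MC in hypoxia, which asks how the response differed under miR-125b and its isomiRs in the stressed cells. These 5 comparisons share the 3 Hypoxia MC libraries, so each is given by its own values. Gclc was higher and Slc7a11 lower than in MC with all 5 mimics, Hmox1 was higher with 4 of them, and Nfe2l2 and Txnrd1 were higher with Trim AG and Trim AGU. The members did not move as a block, because genes of glutathione synthesis went both ways. Of the members, 2 were higher and 1 lower with miR-125b, beside 9.43% and 12.5% of all genes tested. The counts were 1 and 2 with Plus A (10.5% and 14.4% of all), 2 and 1 with Trim A (12.4% and 15.7%), 5 and 1 with Trim AG (17.0% and 20.2%) and 5 and 1 with Trim AGU (11.4% and 12.4%). The median log2 fold change of the 9 members was 0.73 with Trim AGU, 0.69 with Trim AG, 0.04 with Trim A, 0.00 with miR-125b and 0.01 with Plus A, and that of all genes tested lay between -0.02 and 0.00.

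Genes of the myoblast line and of its myogenic differentiation differed in the same comparisons. Of 8 tested, those called lower than in MC were 6 with Trim AGU, 5 with Trim AG, 7 with Trim A, 6 with miR-125b and 7 with Plus A, and 0 were higher. Their median log2 fold change was -1.25, -1.53, -1.82, -1.90 and -1.95 in that order. The summed level of the 9 listed genes other than Vim was 925 to 943 CPM in the Hypoxia MC libraries and 135 to 235 CPM in the other hypoxia libraries. Actc1, a cardiac actin, was at 33.3 CPM in Hypoxia MC and at most at 1.45 CPM in the other group means, and Myh7 and Cdh2 were at or near 0 in all groups. The part of this shift in the differences of the members from MC was not tested.

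Gclc was at 170, 167 and 166 CPM in Hypoxia MC, at 296, 284 and 292 CPM with miR-125b, at 346, 312 and 312 CPM with Plus A, at 350, 384 and 385 CPM with Trim A, at 352, 369 and 362 CPM with Trim AG and at 396, 270 and 395 CPM with Trim AGU. Every mimic library lay above every MC library. The fold change was 2.31 with Trim AGU, 2.25 with Trim AG, 2.29 with Trim A, 1.78 with miR-125b and 1.96 with Plus A (adjusted p at most 0.0018, edgeR). In normoxia, Gclc spanned 127 to 162 CPM over the 5 mimics and was not called for any isomiR against miR-125b.

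The modifier subunit did not follow. Gclm was at 17.6, 17.1 and 18.0 CPM in Hypoxia MC, at 12.5, 13.5 and 12.9 CPM with miR-125b, at 12.8, 11.2 and 13.1 CPM with Plus A and at 20.5, 19.3 and 21.4 CPM with Trim AGU. Trim A and Trim AG overlapped with MC, miR-125b and Plus A lay below it and Trim AGU above it. None of the 5 differences was called, and the log2 values were 0.36 ± 0.11 with Trim AGU, 0.02 ± 0.08 with Trim AG, -0.02 ± 0.10 with Trim A, -0.40 ± 0.07 with miR-125b and -0.48 ± 0.09 with Plus A. The ratio of the subunit transcripts, Gclc to Gclm in FPKM, was 4.67 ± 0.142 in Hypoxia MC (SD, n = 3 here and below). It was 8.42 ± 1.40 with Trim AGU, 10.3 ± 0.279 with Trim AG, 10.91 ± 0.459 with Trim A, 10.96 ± 0.647 with miR-125b and 12.8 ± 1.04 with Plus A. In normoxia it lay between 2.89 ± 0.442 with Trim AGU and 5.66 ± 0.792 with Plus A, and every normoxia library was below every hypoxia library with a miR-125b form. Normoxia MC had no library values and is not part of this range. Its authors' means, given below, were lower than those of Plus A for Gclc and higher for Gclm.

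**Figure D3:**
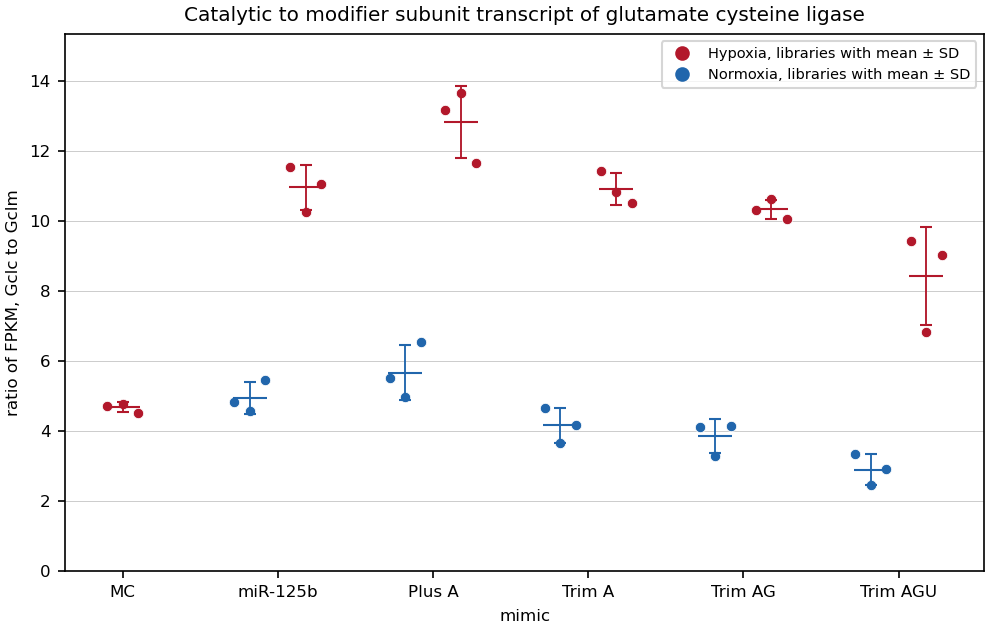
Ratio of the FPKM of Gclc, the catalytic subunit, to that of Gclm, the modifier subunit (vertical axis, from 0), by mimic (horizontal axis) in hypoxia (red) and normoxia (blue). Points are libraries and bars the mean ± SD of 3. Hypoxia MC, at 4.67, lies among the normoxia groups of the miR-125b forms, and the other hypoxia groups lie between 8.42 and 12.8. Normoxia MC had no library values and is not shown, so hypoxia is not set against normoxia for MC.

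Slc7a11 went the other way. It was at 61.4, 61.7 and 63.5 CPM in Hypoxia MC, at 33.1, 36.3 and 33.2 CPM with miR-125b, at 30.8, 30.7 and 28.8 CPM with Plus A, at 37.1, 32.1 and 34.5 CPM with Trim A, at 28.1, 25.4 and 28.4 CPM with Trim AG and at 26.9, 17.2 and 28.7 CPM with Trim AGU. No mimic library came near the lowest MC library. Slc7a11 was 1.77-fold lower with miR-125b, 2.03-fold lower with Plus A, 1.74-fold lower with Trim A, 2.18-fold lower with Trim AG and 2.35-fold lower with Trim AGU (adjusted p at most 0.00311, edgeR). Slc3a2, which encodes the partner chain of Slc7a11 in the exchanger, moved in the opposite direction, from 428 CPM in Hypoxia MC to 671 to 791 CPM in the group means of the 5 mimics, and was called higher with each. Of 8 genes of the ATF4 response, 4 were called higher with miR-125b, 5 with Plus A and 7 each with Trim A, Trim AG and Trim AGU, with none lower. The part of the ATF4 genes and of Slc3a2 in the difference of Slc7a11 from MC was not tested.

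Hmox1 was at 563, 551 and 535 CPM in Hypoxia MC, below all hypoxia libraries of the other mimics listed above. It was 1.59-fold higher with miR-125b, 1.92-fold with Trim A, 1.82-fold with Trim AG and 1.96-fold with Trim AGU, and with Plus A its 1.34-fold difference (log2 0.43 ± 0.05, adjusted p = 3.08e-05, edgeR) was under the fold threshold. None of the 8 HIF targets was called higher than in MC with any mimic, and 2 to 5 of them were called lower. The part of this list in the difference of Hmox1 from MC was not tested. Nfe2l2 was at 290, 306 and 290 CPM in Hypoxia MC, again below the other hypoxia groups. Its log2 differences were 0.31 ± 0.03 with miR-125b, 0.39 ± 0.05 with Plus A and 0.52 ± 0.09 with Trim A, and those of Trim AG (0.77 ± 0.10) and Trim AGU (0.79 ± 0.12) were called. Keap1 stood at 39.4, 39.1 and 37.8 CPM in Hypoxia MC and gave -0.28 ± 0.08 with Trim AG (adjusted p = 0.0196, edgeR), its largest difference and one below the fold threshold.

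Nqo1, Txnrd1 and Srxn1 were called with some mimics only. Nqo1 was at 1322, 1271 and 1247 CPM in Hypoxia MC, at 1077, 1081 and 1088 CPM with miR-125b, at 837, 831 and 815 CPM with Plus A, at 1123, 1291 and 1306 CPM with Trim A, at 1192, 1316 and 1231 CPM with Trim AG and at 1990, 2385 and 2086 CPM with Trim AGU. It was 1.52-fold lower with Plus A and 1.87-fold higher with Trim AGU, and was not called with the other mimics. Txnrd1 was at 482, 477 and 490 CPM in Hypoxia MC, at 438, 457 and 445 CPM with miR-125b, at 828, 676 and 740 CPM with Trim AG and at 857, 601 and 738 CPM with Trim AGU. It was 1.62-fold higher than in MC with Trim AG and 1.66-fold higher with Trim AGU, and its mitochondrial relative Txnrd2 was called higher with the same 2 mimics (log2 0.96 and 0.93). Txnrd1 was not called with the other mimics. On the log2 scale it gave 0.10 ± 0.04 with Plus A, 0.04 ± 0.07 with Trim A and -0.08 ± 0.03 with miR-125b. Without Hypoxia MC replicate 2 or replicate 3, the calls of Nqo1 and Txnrd1 with Trim AGU were lost, with an adjusted p of at most 0.0537 and 0.0520.

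Srxn1 was at 27.8, 28.9 and 24.1 CPM in Hypoxia MC and at 41.6, 38.9 and 48.5 CPM with Trim AG, where it was called (log2 0.73 ± 0.11, adjusted p = 0.000401, edgeR). It gave 0.35 ± 0.07 with miR-125b and 0.40 ± 0.09 with Trim A, both past the adjusted p and under the fold threshold. Plus A gave -0.16 ± 0.12 and was not called. With Trim AGU the log2 difference was 0.73, as with Trim AG, but with an SE of 0.48, and was not called. Without Hypoxia Trim AGU replicate 2 it was 1.14 and was called. In CPM, that library was also the lowest of its group for Gclc, Gclm, Txnrd1, Keap1 and Slc7a11 and the highest for Nqo1 and Hmox1. In FPKM, its Gclm was the highest of the group (15.2 beside 13.6 and 14.4), and its Keap1 lay between the other libraries. Without Hypoxia Trim AGU replicate 2, Gclc gave 1.32, Slc7a11 -1.08, Txnrd1 0.80 and Nqo1 0.75. In this refit 7 members were called, a count given without the share of all genes and so not read as a result about the members.

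**Figure D4:**
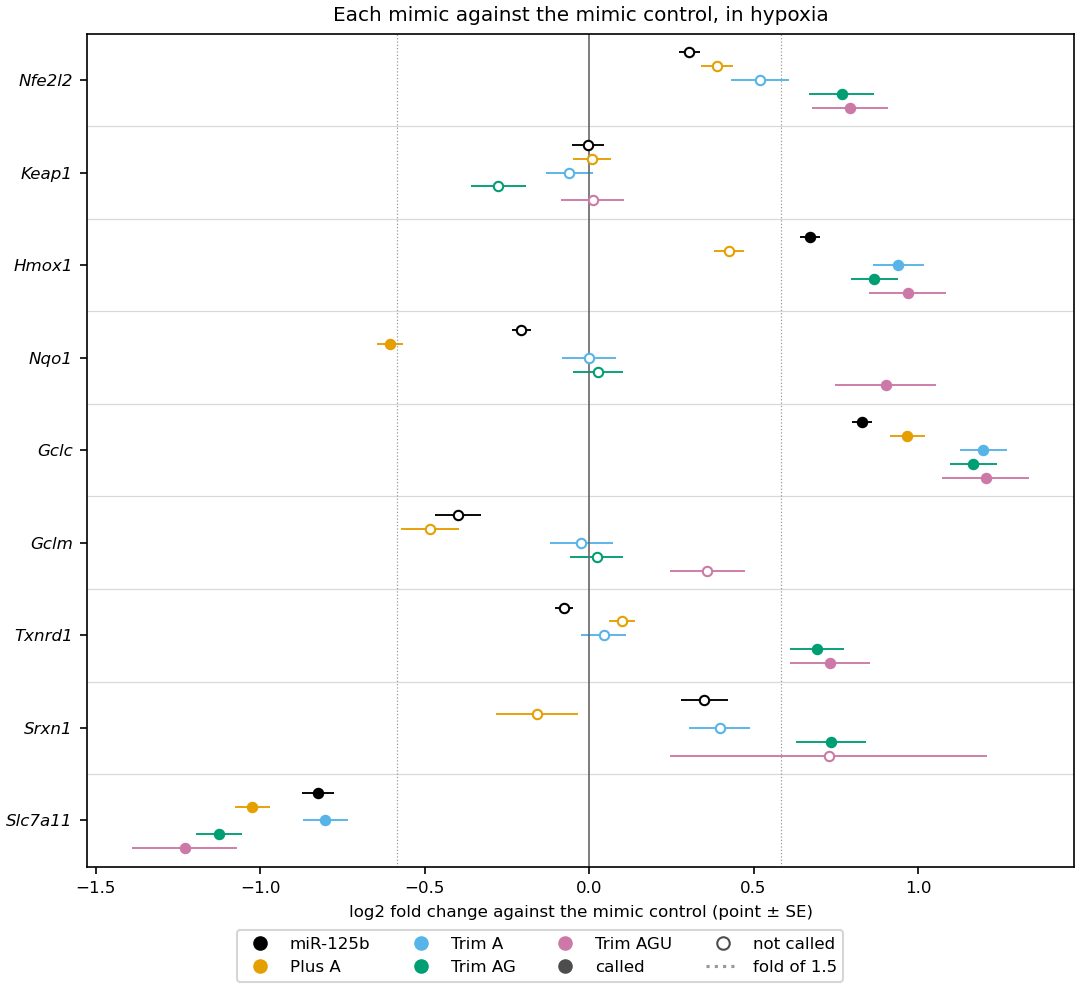
Log2 fold change against MC in hypoxia (horizontal axis, point ± SE) of each member (vertical axis) with each of the 5 mimics. Filled points were called, and Gclc runs from 0.83 to 1.21 and Slc7a11 from -1.23 to -0.80, while Nqo1 spans -0.61 with Plus A to 0.90 with Trim AGU.

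The isomiRs were next set against miR-125b itself, to ask what the 3′ end changed. The comparisons in each oxygen condition share the 3 miR-125b libraries. In hypoxia, 0 members were called for Plus A and 0 for Trim A, beside 2.03% and 0.873% of all genes tested. At an unadjusted p below 0.05, edgeR gave 6 members for Plus A and 5 for Trim A, beside 31.2% and 23.5% of all genes, and DESeq2 called 0 members in both. For Plus A the lowest values were Srxn1 at -0.51 ± 0.12 (adjusted p = 0.0202, edgeR) and Nqo1 at -0.40 ± 0.03 (0.00017), both under the fold threshold. Without Hypoxia Plus A replicate 3, Srxn1 was called with Plus A (log2 -0.65, adjusted p = 0.00571, edgeR). For Trim A the highest values were Gclm at 0.37 ± 0.10 and Gclc at 0.36 ± 0.07, and the other differences were smaller.

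With Trim AG, 1 member was higher and 0 lower than with miR-125b in hypoxia, beside 7.85% and 11.5% of all genes tested. That gene was Txnrd1 (1.69-fold, log2 0.76 ± 0.08, adjusted p = 0.000251, edgeR). With Trim AGU, 3 members were higher and 0 lower, beside 1.83% and 1.93% of all genes. They were Nqo1 (2.14-fold, log2 1.095 ± 0.15), Txnrd1 (1.74-fold, 0.80 ± 0.12) and Gclm (1.68-fold, 0.75 ± 0.12), with an adjusted p of 0.0152, 0.0201 and 0.0231 (edgeR), and none of their libraries overlapped with those of miR-125b. All 3 calls were lost without any 1 of the miR-125b libraries, without Hypoxia Trim AGU replicate 3 and with the replicate number as a block, with an adjusted p of at most 0.185.

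In normoxia, 0 members were called for Plus A and 0 for Trim A, beside 0% and 0.414% of all genes tested. At an unadjusted p below 0.05, edgeR gave 0 members for Plus A and 3 for Trim A, beside 2.73% and 18.7% of all genes, and DESeq2 called 0 members in both. The largest difference with Plus A was that of Slc7a11, -0.27 ± 0.13. Without the pair of libraries that went against their labels, Slc7a11 gave -0.48 (adjusted p = 0.00848, edgeR) and Nqo1 -0.30 (0.0274), and 0 members were called. The share of all genes in this refit is not given, so the 0 is not read as a result about the members.

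Hmox1 was lower with the longer trims in normoxia. With Trim AG, 0 members were higher and 2 lower than with miR-125b, beside 7.58% and 6.36% of all genes tested, and these were Hmox1 (2.00-fold lower, log2 -0.998 ± 0.08, adjusted p = 2.98e-05, edgeR) and Slc7a11 (1.95-fold lower, log2 -0.96 ± 0.11, adjusted p = 0.000204). With Trim AGU, 1 was higher and 1 lower, beside 6.22% and 5.16% of all genes. Hmox1 was 2.23-fold lower (log2 -1.16 ± 0.09, adjusted p = 0.000154, edgeR) and Gclm 1.56-fold higher (log2 0.64 ± 0.11, adjusted p = 0.00287). Gclm was at 21.6, 26.1 and 23.8 CPM with Trim AGU and at 14.6, 16.7 and 14.5 CPM with miR-125b, and its call was lost without Normoxia Trim AGU replicate 2. Nfe2l2 gave -0.45 ± 0.06 with Trim AG and -0.29 ± 0.07 with Trim AGU, both past the adjusted p and under the fold threshold. Of the 8 ATF4 genes, Trim AG had 5 called lower and Trim AGU 6 in the same comparisons, and of the 8 tested genes of the myoblast list 5 and 2 were called higher. The part of both lists in the result was not tested.

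The difference between oxygen conditions was tested as an interaction, which asks whether an isomiR differed from miR-125b by another amount in hypoxia than in normoxia. For Plus A and Trim A, 0 members were called, beside 0.0193% and 0.605% of all genes tested. At an unadjusted p below 0.05, edgeR gave 3 and 4 members, beside 16.1% and 22.4% of all genes, and DESeq2 called 0 members in both. Without the pair of libraries that went against their labels, 0 members were called for Plus A, a count given without the share of all genes. For Trim AG, 5 were called higher in hypoxia relative to normoxia and 0 lower, beside 4.29% and 6.97% of all genes. They were Hmox1 (1.17 ± 0.11), Nfe2l2 (0.90 ± 0.12), Txnrd1 (0.79 ± 0.10), Slc7a11 (0.64 ± 0.14) and Nqo1 (0.60 ± 0.16) on the log2 scale, with an adjusted p of at most 0.0179 (edgeR). The call of Nqo1 was lost in 4 of 16 alternatives, and that of Slc7a11 without Normoxia miR-125b replicate 3. Without Normoxia miR-125b replicate 1, Srxn1 was called too (0.61).

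For Trim AGU, 3 members were called higher and 0 lower, beside 0.612% and 0.354% of all genes. They were Hmox1 (1.48 ± 0.15, adjusted p = 0.00374), Txnrd1 (0.88 ± 0.14, 0.0187) and Nfe2l2 (0.81 ± 0.14, 0.0230, all edgeR). The calls of Txnrd1 and Nfe2l2 were lost in 8 of 16 alternatives, among them the omission of any 1 of the miR-125b libraries of either condition and of Normoxia Trim AGU replicate 3. Without Hypoxia Trim AGU replicate 2, 6 members were called, and DESeq2 called 4, and the share of all genes is given for neither. The members differed in the condition that held the change. Txnrd1 differed little from miR-125b in normoxia (log2 -0.05 with Trim AG and -0.04 with Trim AGU) and was higher in hypoxia, while Hmox1 was lower in normoxia and gave 0.19 and 0.29 in hypoxia. Of the 8 ATF4 genes, 8 were called higher in the interaction for Trim AG and 6 for Trim AGU, and 0 were lower for either. Of the 8 HIF targets, 0 were called higher and 4 lower for Trim AG, and 1 higher and 0 lower for Trim AGU. Of 8 tested genes of the myoblast list, 1 was called higher and 6 lower for Trim AG and 1 and 1 for Trim AGU. The part of these lists in the result was not tested.

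**Figure D5:**
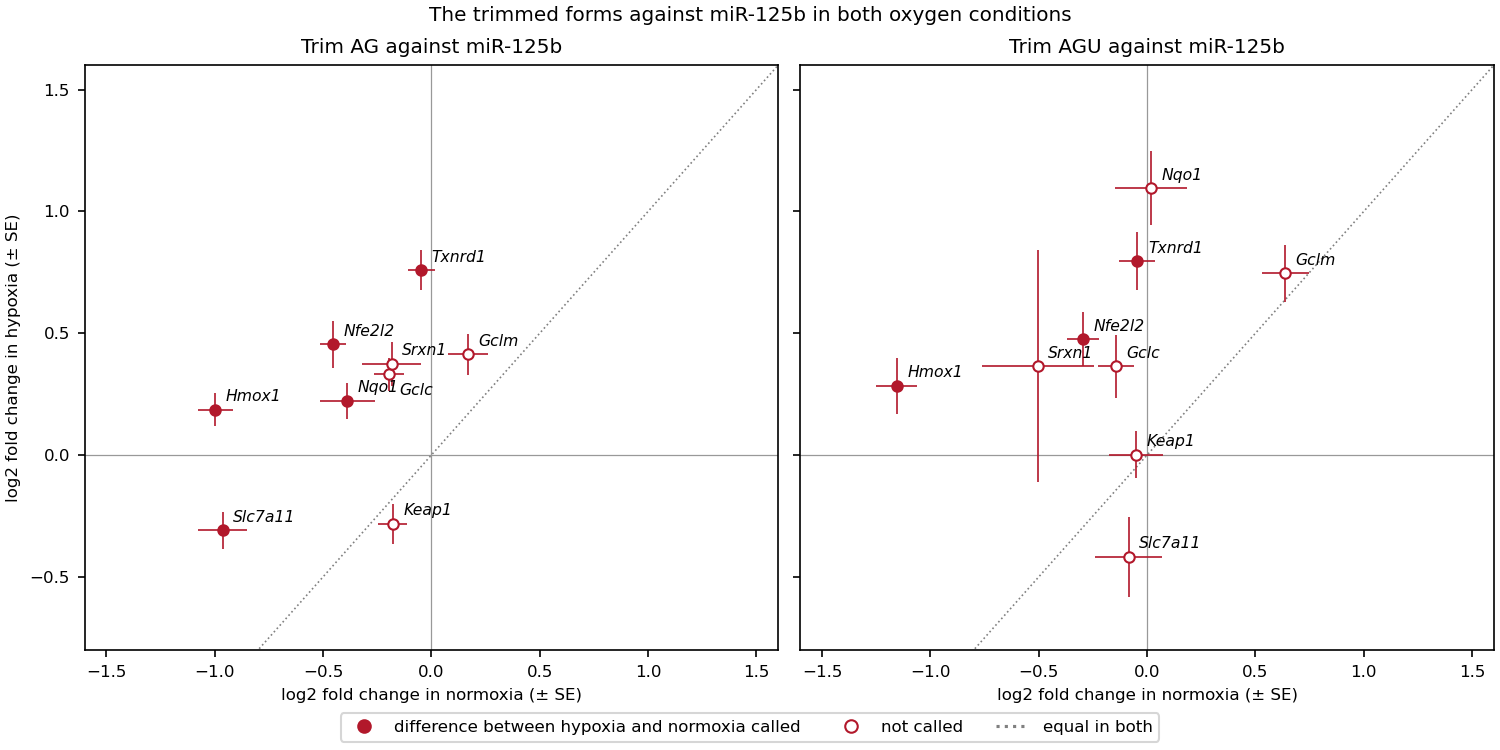
Log2 fold change against miR-125b in normoxia (horizontal axis) and in hypoxia (vertical axis), point ± SE, for Trim AG (left) and Trim AGU (right), with the line of equal change. Filled points differed between the conditions by the interaction test, and Hmox1 lies farthest left, at -0.998 and -1.16.

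In normoxia, MC was given only as the authors' group means in their comparison with Plus A, on their normalized count scale, with no library values and so no test. The mean of Hmox1 was 5947 with Plus A and 2750 with MC, and that of Gclc 4499 and 2506. Nfe2l2 had means of 5945 and 3726, Nqo1 of 11620 and 8173, Txnrd1 of 12602 and 9668, and Srxn1 of 368 and 244. Gclm was lower with Plus A, at 391 and 693, as was Slc7a11, at 645 and 895, and Keap1 was at 1063 and 932. Gclc and Slc7a11 thus lay on the same sides of MC as in hypoxia, while Nqo1 and Srxn1 lay above MC in normoxia and below it in hypoxia, where the difference of Srxn1 (log2 -0.16 ± 0.12) was not called. The Plus A means include the library that went against its label.

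The order of the groups differed between members. Hmox1 ran 11.5-fold from its lowest group mean, Normoxia Trim AGU, to its highest, Hypoxia Trim A. The range was 6.49-fold for Nqo1, 4.88-fold for Srxn1, 4.47-fold for Slc7a11, 3.14-fold for Nfe2l2, 2.69-fold for Gclc, 1.94-fold for Txnrd1, 1.93-fold for Gclm and 1.31-fold for Keap1. Hypoxia MC held the highest mean of Slc7a11 and Keap1, and Normoxia Trim AGU that of Gclm. With CPM from TMM effective sizes, the highest mean of Keap1 was that of Normoxia Plus A and the highest means of Hmox1, Nfe2l2 and Txnrd1 were those of Hypoxia Trim AGU, while those of Slc7a11 and Gclm stayed in place. Of 10 neighbours in the order of each gene, those whose libraries overlapped were 10 for Keap1, 8 for Srxn1, 7 each for Gclc and Gclm, 6 each for Nfe2l2, Nqo1, Txnrd1 and Slc7a11, and 4 for Hmox1. Neighbouring levels of Keap1 were therefore never separated by their spread.

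As a description over the 11 group means, on log2(CPM + 1), Nfe2l2 correlated with Hmox1 at r = 0.979, Srxn1 at 0.962, Gclc at 0.956, Nqo1 at 0.930 and Txnrd1 at 0.848. The values were 0.511 for Keap1, 0.443 for Slc7a11 and -0.182 for Gclm, and the subunits Gclc and Gclm gave -0.198. The groups share the contrast of hypoxia with normoxia and library totals, so these values carry no test. The share of all genes that reach such values is not given, so they are not read as particular to the members. Among 12314 genes at a mean of 1 CPM or more, the patterns most like that of Nfe2l2 were those of Unc50 (r = 0.994) and Ankmy2 (0.988). Both were closer to Nfe2l2 than any member was. The closest patterns were Hax1 (0.995) and Sqstm1 (0.993) for Hmox1, Dctn3 (0.987) and Pigk (0.985) for Nqo1, Msantd4 (0.989) and Upf3a (0.988) for Gclc, and Ankrd39 (0.988) and Fez1 (0.988) for Srxn1. Sptssa (0.956) and LOC499235 (0.917) were closest to Gclm, Yrdc (0.957) and Actl7b (0.951) to Txnrd1, Fam219b (0.957) and Usp20 (0.956) to Keap1, and AABR07004881.1 (0.953) and Ifih1 (0.952) to Slc7a11. Fez1 and Actl7b had means of 1.15 and 1.92 CPM, near the minimum.

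The wider pathway was described by 40 further genes for NRF2 regulators, glutathione and thioredoxin use, NADPH supply, heme and iron handling, and detoxification. Over the 5 mimics, 14 of 39 tested were called higher in hypoxia than in normoxia and 1 lower. Of all genes tested, 13.7% were higher and 16.1% lower. The median log2 fold change of the list was 0.29 beside 0.01 for all genes tested. Among 7 genes of detoxification and export 6 were higher, the largest share of the lists. In the other lists, 4 of 9 glutathione genes, 2 of 11 regulators and 0 of 3 thioredoxin genes were higher. So were 1 of 5 genes of NADPH supply and 1 of 4 of heme and iron handling. Aldh3a1, an aldehyde dehydrogenase, rose from group means of 4.18 to 6.97 CPM in normoxia to 60.6 to 104 CPM in hypoxia with a miR-125b form (log2 3.93). Osgin1, an oxidative stress-induced growth inhibitor, rose by 2.51 and Ptgr1, a prostaglandin reductase, by 1.72 on the log2 scale. Gss, glutathione synthetase, was the gene that fell, by 0.92 on the log2 scale.

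Against MC in hypoxia, 2 of 38 tested wider pathway genes were higher and 2 lower with miR-125b (9.43% and 12.5% of all genes). The counts were 4 and 2 with Trim A (12.4% and 15.7%) and 8 and 5 with Trim AG (17.0% and 20.2%). They were 7 and 2 with Trim AGU (11.4% and 12.4%), and 2 and 5 of 39 with Plus A (10.5% and 14.4%). Ftl1, the ferritin light chain that stores iron released from heme, was called higher with all 5 mimics and rose from 3033 CPM in Hypoxia MC to 10291 CPM with Trim AGU (log2 1.93). Ephx1, microsomal epoxide hydrolase, was called lower with all 5, from 66.5 CPM in Hypoxia MC to between 18.6 and 30.5 CPM. Nfe2l1, which encodes the NRF2 relative NRF1, was lower with Trim AG (log2 -1.73, 250 to 72.4 CPM) and Trim AGU (-0.98). The same gene was lower than with miR-125b in normoxia, by 1.498 on the log2 scale for Trim AG and 0.63 for Trim AGU. In that condition, Trim AG had 1 of 38 genes higher and 7 lower, beside 7.58% and 6.36% of all genes tested. Trim AGU had 1 higher and 5 lower, beside 6.22% and 5.16%. Slc3a2 and Osgin1 were among those lower in both. Txn1, thioredoxin, was higher than in MC with Trim A (0.71), Trim AG (0.90) and Trim AGU (1.35).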

How the data were processed

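RNA of H9C2 cells was sequenced by the authors from non-stranded poly-A libraries. Per the labels, HISAT2 and StringTie were used, with no version, and the genome build is not given in the sources used here. Each of the 12 deposited tables sets 1 group against another. Raw gene counts and FPKM values per library, deposited in 11 of them, were joined on the gene identifier. A gene that no table of a library listed was given a count of 0. For libraries in more than 1 table, genes left out of a table had at most 1 count for that library in another. Libraries in a single table could not be checked in this way. For Plus A against MC in normoxia the authors deposited the mean normalized signal per group. The authors' fold changes and p-values from DESeq2 and 66 columns of their normalized values per library were not used. Without strand, reads of overlapping or antisense genes and of near-identical copies cannot be told apart.

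CPM were counts over the library total. In 23 comparisons, edgeR 4.0.16 in R 4.3.3 (filterByExpr, TMM, quasi-likelihood test) was fitted to all genes of the groups compared, 14720 to 16169 after the filter, with Benjamini-Hochberg adjustment over them. A call needed an adjusted p below 0.05 and a 1.5-fold change. The SE was taken as the absolute log2 fold change divided by the root of edgeR's F. The fitting step was tested on simulated counts. TMM factors were 0.886 to 1.06. The members and lists were chosen with earlier results of these data known. Genes of the wider list were named by the largest rises and falls among called genes, at most 3 each per comparison, with a mean of at least 1 CPM. Of the listed symbols, Pgd, Fth1, Slc40a1, Abcc1, Ca9 and Pecam1 matched no name in the tables, and Cbr1, which matched 2 identifiers, was left out. Alternatives were DESeq2 1.42.0, no filter, a single fit of all libraries, a block for the replicate number, the omission of each library, other fold thresholds and CPM from TMM effective sizes. Tables were joined with Python, pandas and numpy.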

Additional observations from a re-analysis of the deposited data

Results flagged for a closer look

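Of the 9 members in 4 interaction tests, 11 differences between the oxygen conditions passed an adjusted p of 0.05 (edgeR), given here as the log2 difference from miR-125b in hypoxia minus that in normoxia. For Trim AG they were 1.17 for Hmox1, 0.90 for Nfe2l2, 0.79 for Txnrd1, 0.64 for Slc7a11, 0.60 for Nqo1, 0.55 for Srxn1 and 0.51 for Gclc. For Trim AGU they were 1.48 for Hmox1, 0.88 for Txnrd1 and 0.81 for Nfe2l2. For Trim A the value was 0.54 for Hmox1 (adjusted p = 0.0430, edgeR). At this rule, 22.7% of all genes passed for Trim AG, 0.966% for Trim AGU, 0.811% for Trim A and 0.0385% for Plus A. All 11 were positive, and those of Srxn1 and Gclc with Trim AG and of Hmox1 with Trim A were below a 1.5-fold change.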

How the results depend on the processing

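Of 70 calls of a member, 59 were kept in every alternative with the 1.5-fold threshold and 11 were lost in at least 1, and 0 were reversed. With a fold threshold of 2, the members called were 2, 2, 1, 0 and 1 for Trim AGU, Trim AG, Trim A, miR-125b and Plus A against MC in hypoxia, beside 9.53% to 19.2% of all genes. Against miR-125b they were 0 for Trim AG and 1 for Trim AGU, in hypoxia (7.73% and 2.06% of all genes) and in normoxia (4.88% and 4.33%), 3 for hypoxia against normoxia with miR-125b and 1 with Plus A (9.93% and 10.9%), and 1 each for the interactions of Trim AG and Trim AGU (4.09% and 0.605%). With no fold threshold they were 8, 7 and 5 for miR-125b, Plus A and Trim A against MC (59.5%, 56.6% and 52.1% of all genes), 4, 1 and 8 for Plus A, Trim A and Trim AG against miR-125b in hypoxia (15.9%, 2.19% and 41.4%), 4 for Trim AG in normoxia (38.5%), 8 over the 5 mimics (69.7%) and 1 for the interaction of Trim A (0.811%). Leaving out each library in turn gave 0 to 1 members for Plus A and 0 to 4 for Trim AGU against miR-125b in hypoxia, 1 to 2 for Trim AGU in normoxia, 0 to 1 for the interaction of Trim A and 1 to 6 for that of Trim AGU. The replicate numbers did not pair the libraries throughout. Same-numbered libraries deviated together with r between -0.345 and 0.560, and only 1 of 55 pairs of groups had every r above 0.1. In hypoxia, replicates 1 and 2 of the trimmed forms did deviate together. Their r was 0.545 and 0.410 between Trim A and Trim AG, and 0.560 and 0.337 between Trim A and Trim AGU. It was 0.435 and 0.264 between Trim AG and Trim AGU. Replicate 3 gave -0.069, -0.017 and 0.083 for the same pairs, and the source of this was not tested. With a replicate block, the count was 0 in place of 3 for Trim AGU against miR-125b in hypoxia and 1 in place of 3 for the interaction of Trim AGU, and 13 of 33 libraries were closest to their own number. For refits without a library or with this block, the share of all genes called is not given beside the counts. CPM from TMM effective sizes moved 22 of the 99 group means by more than 1 SD, and calls do not rest on these values. Libraries with counts numbered 3 per group, which limits the precision of each value.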
